A study of Homo sapiens with 4 samples.

Results

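Junctions with noncanonical motifs are gaps in spliced read alignments whose intron ends carry none of the dinucleotide pairs GT-AG, GC-AG or AT-AC on either strand. In the deposited junction lists the aligner gave them motif code 0, and members were all such junctions on the 24 main chromosomes (autosomes, X and Y) with at least 1 uniquely mapped read summed over the 4 libraries. There were 3116 of them among 385800 junctions (0.808%), and they held 33882 of 16868479 unique junction reads (0.201%). Junctions already in the annotation given to the aligner (263, with 7465 unique reads) were kept apart from unannotated ones (2853, with 26417 unique reads). A further 118 annotated and 613 unannotated junctions of this code had multiply mapped reads only and were not members.

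The libraries held chromatin-bound RNA of K562, a human leukemia line with erythroid traits, in 2 groups of 2: SF3B1 wild type and SF3B1 K700E, a substitution in the U2 snRNP subunit SF3B1. A treatment text shared by both groups gives induction of the modified allele by doxycycline at 1 µg/ml with harvest at 4 days, and it is not stated whether an inducible allele was also present in wild-type cells. Extraction buffers held 25 µM α-amanitin, an inhibitor of RNA polymerase II, and the RNA was depleted of polyadenylated and ribosomal RNA. Nothing states that the replicates came from separate cultures, and the p-values below therefore rest on a spread between libraries that may be technical. Below, values of 4 libraries are given in the order wild type 1, wild type 2, K700E 1, K700E 2.

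The spliceosome recognises introns by short motifs at both ends. The U2 snRNP, to which SF3B1 belongs, binds the branch point upstream of the acceptor, and the rare AT-AC introns are removed by the minor spliceosome. A few introns lie outside these rules. The best known is the short intron of the XBP1 mRNA, which the stress sensor IRE1 cuts out in the cytoplasm and the tRNA ligase RTCB closes. Aligners also report such gaps where a read skips bases for other reasons, for example at a deletion, at a repeat or where the enzyme that copies RNA jumps between similar stretches.

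Sequences are shown for members whose ends lie in exons, since exon sequence could be read from GENCODE 29 transcripts on GRCh38. They run 5′ to 3′ on the strand of the gene named, and the capitals mark the first and last letters of the gap, except where the whole gap is in capitals. The first set is the XBP1 intron (chr22:28796122-28796147, 26 nt), shown because it is the member with a known mechanism, followed by 3 annotated introns of protein-coding genes, chosen after their values were seen, that show the kinds of ends found: CNBP (chr3:129171281-129171445, 165 nt), DDX46 (chr5:134816607-134817495, 889 nt) and USP21 (chr1:161164613-161164834, 222 nt).
XBP1 whole gap: caCTCAGACTACGTGCACCTCTGCAGCAgg
XBP1 left end: gtccgcagcaCTcagactac
XBP1 right end: ctctgcagCAggtgcaggcc
CNBP donor end: caggaggatgGTaagtattt
CNBP acceptor end: cttattgtTGaagcctgcta
DDX46 donor end: gtctcaggtaTTaagtaatt
DDX46 acceptor end: ttaactacAGgatgtgatgc
USP21 donor end: ctcgtgctccATatcctaat
USP21 acceptor end: cagggcttAGatctgaatcg
The XBP1 gap can be slid by 6 nt without changing the spliced product, because the bases around its ends repeat. CNBP keeps a GT donor and has TG at its acceptor, whereas DDX46 and USP21 keep an AG acceptor behind a TT or AT donor.

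The second set is an unannotated gap in exons where the kinase gene STK17A overlaps COA1 (chr7:43645701-43645741, 41 nt), shown because it passed the test between groups.
STK17A left end: cacctaagagGTttggtcag
STK17A right end: aagtctctAAgtttgctcta
The STK17A gap starts with GT on the gene's strand and ends with AA, and 5 nt repeat at its ends.

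Unique junction reads numbered 3576184, 3680968, 4297393 and 5313934 in the 4 libraries, so both K700E libraries were deeper. SF3B1 itself had 817, 926, 770 and 640 junction counts per 1000000 (CPM), and junction counts cannot show the substitution. The labels call the cells epithelial: the 10 erythroid and K562 markers summed to 1287 to 1932 CPM per library, led by the transferrin receptor TFRC, with GATA1 and ALAS2 present, while 8 epithelial markers summed to 318 to 440 CPM, nearly all from KRT8, KRT18 and KRT19, and CDH1 and KRT5 were not listed. None of the markers tested passed the test between the groups.

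The lists themselves set what could be seen of the unannotated members. In each library an unannotated noncanonical junction was listed only with at least 3 reads and an overhang of at least 30 nt on its shorter side, against 1 read and 12 nt for unannotated canonical junctions and 1 read and 1 nt for annotated ones. None was listed with an end less than 10 nt from the same kind of end of another junction. A junction at 0 in a library was therefore not listed there, which is not the same as no reads. Of the 2853, 1931 (67.7%) were listed in 1 library and 278 (9.74%) in all 4. Among those with 10 to 19 reads in total, 15% of 280 unannotated noncanonical junctions were listed in all 4 libraries, against 68.5% of 7671 unannotated canonical ones and 73.7% of 19 annotated noncanonical ones. With 50 or more reads these shares were 90.7% of 75, 98.7% of 1427 and 100% of 37.

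**Figure D1:**
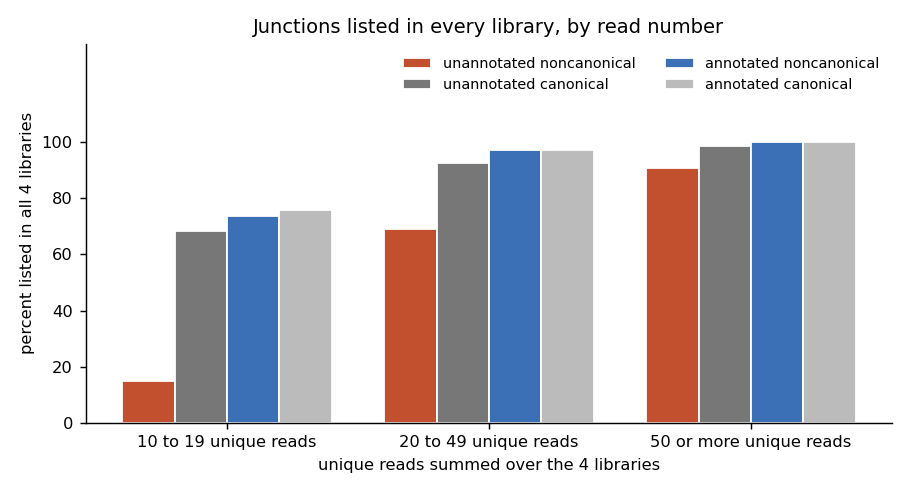
Percent of junctions listed in all 4 libraries (vertical axis) by unique reads summed over the libraries (horizontal axis), for the 4 classes in colour. Unannotated noncanonical junctions with 10 to 19 reads stand at 15%, the other classes at 68.5% to 75.8%, and the gap narrows with more reads.

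The classes differed in length. Unannotated members had a median of 333 nt (21 to 616845 nt), against 2248 nt for unannotated canonical junctions. Gaps of 21 to 30 nt made up 16.5% of them (470) and 30.2% of their reads, whereas 0.573% of unannotated canonical junctions were that short. A second pile lay between 300 and 339 nt with 116 junctions, against 31 in the 40 nt below it and 33 in the 40 nt above. Unannotated canonical junctions had no such pile, with 2844, 2746 and 2423 in the same windows. Annotated members had a median of 639 nt, and 39 of them were shorter than 21 nt, down to 1 nt.

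**Figure D2:**
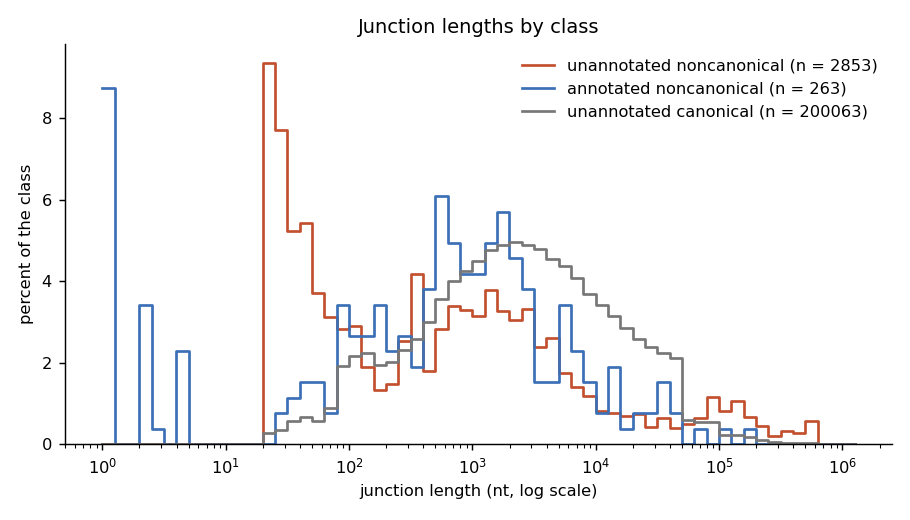
Junction length on a log scale (horizontal axis, nt) against percent of each class (vertical axis). The unannotated noncanonical class rises at 21 to 50 nt and again near 300 to 340 nt, and the annotated noncanonical class has a separate group at 1 to 5 nt.

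Annotated members lay mostly in coding sequence. In 163 of 263 (62.0%) both flanking bases were coding exon, in 51 noncoding exon and in 29 untranslated exon. GENCODE 29 still held 223 of the 263 as introns, 158 of them in protein-coding transcripts and 22 in unprocessed pseudogenes, transcribed or not (11 of each). Of the 224 annotated members of at least 21 nt, end letters could be read for 57, whose ends lie in exons. Among these 57, 31 ended in AG and 15 began with GT or GC. The most frequent pairs were AT-AG (8 introns, 189 unique reads), GG-AG (7 introns, 46 reads), TT-AG (5 introns, 241 reads) and GA-AG (5 introns, 77 reads). A single letter separated 41 of the 57 from a canonical pair. In 13 of 69 annotated members of at least 21 nt with exon sequence at both ends, sliding the gap along its end repeat reached a canonical pair. The other members, among them the introns of NPIPB4, PCBP2 and UBR3 below, could not be read, so these shares do not describe the whole class.

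The 12 annotated members with the most reads held 3562 unique reads, 47.7% of the annotated total. NPIPB4 (chr16:21835518-21835630, 113 nt) led with 118, 139, 164 and 168 unique reads. It belongs to a family of near-identical copies on chromosome 16 and had 281 multiply mapped reads, so its count is uncertain. PCBP2, which encodes an RNA-binding protein for C-rich stretches, had 113, 123, 132 and 166 reads over an intron in its coding sequence (chr12:53461144-53462480, 1337 nt). UBR3, a ubiquitin ligase, had 66, 76, 79 and 97 reads over such an intron (chr2:169927406-169928726, 1321 nt). In CPM, PCBP2 stood at 31.99, 33.5, 29.98 and 31.5 and UBR3 at 18.7, 20.7, 17.9 and 18.4, with both K700E libraries slightly below both wild-type ones in each gene (edgeR adjusted p = 0.985 and 0.982).

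SRRT, a partner of the nuclear cap-binding complex, had 97, 55, 40 and 109 reads over a 182-nt intron (chr7:100887860-100888041). Its libraries spread 9.09 to 27.5 CPM with the lowest and the second highest both in K700E. ZCCHC8, a scaffold of a nuclear RNA decay complex, had 48, 69, 63 and 78 reads over its first intron (chr12:122498868-122500639). IK, a spliceosome component, had 48, 28, 50 and 101 reads over a 280-nt intron (chr5:140659835-140660114), and K700E replicate 2 was its highest library at 19.2 CPM. The other introns of the 12 were those of the F-box gene FBXO9, the nuclear pore gene NUP210, the calcium channel gene ITPR1 and the myosin gene MYO18B, with 158 to 273 reads each.

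The 2 remaining annotated junctions of the 12 were gaps of 1 nt in CYTH2 (chr19:48481922-48481922, 61, 45, 41 and 111 reads) and of 2 nt in POLR2A, the largest subunit of RNA polymerase II (chr17:7513776-7513777, 41, 40, 55 and 81 reads). Gaps this short are steps in transcript models, too short to be spliced out. The 39 gaps of this kind held 680 reads, 9.11% of the annotated total. A 2-nt gap of ZDHHC11, a palmitoyltransferase gene (chr5:795937-795938, 32, 12, 7 and 9 reads), was chosen after its values were seen. It was lower in both K700E libraries (edgeR adjusted p = 0.234), as was the gene, at 68.5, 35.9, 12.2 and 11.9 CPM (log2 change -2.11 ± 0.354 SE, edgeR adjusted p = 0.0246). Without wild type replicate 2 the gap passed the test (log2 change -2.44, adjusted p = 0.0150).

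**Figure D3:**
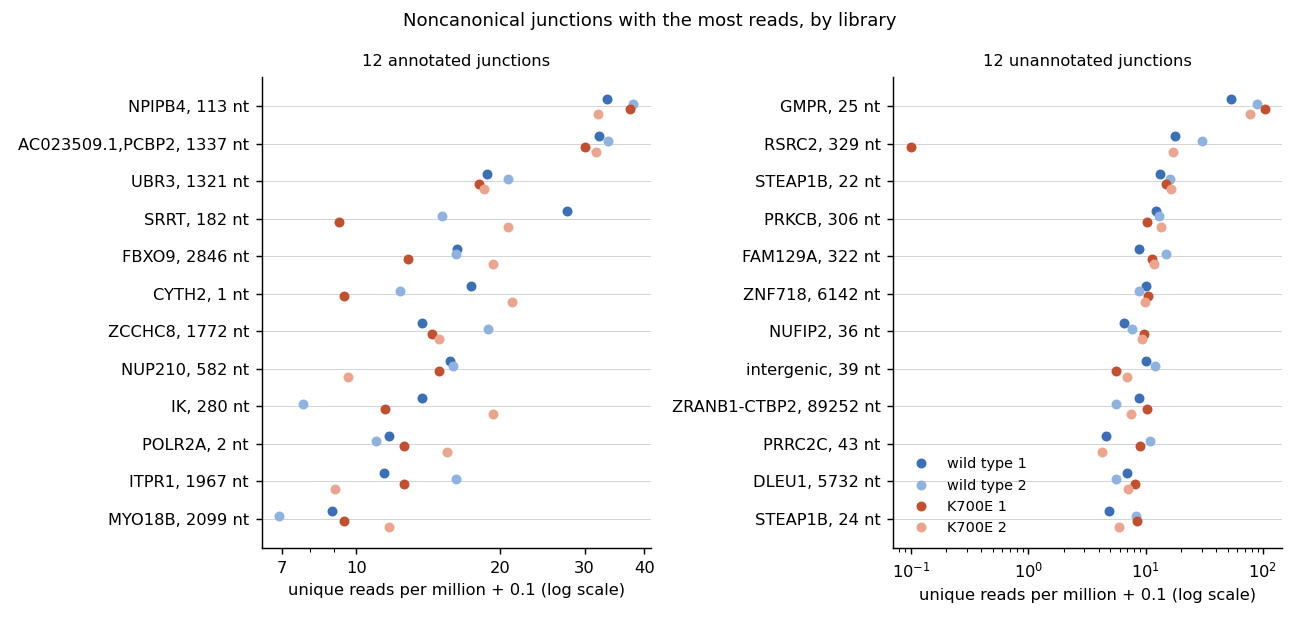
CPM plus 0.1 on a log scale (horizontal axis) in each library for the 12 annotated (left) and 12 unannotated (right) members with the most reads, named by gene and length. Groups overlap for 7 of the annotated and 8 of the unannotated ones, and the RSRC2 gap is at 0 in K700E replicate 1.

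Several annotated members were acceptors a few bases from a canonical one, and these were chosen after their values were seen. In intron 3 of CNBP, a gene for a zinc-finger protein that binds single-stranded nucleic acids, 4 annotated junctions shared the donor. The canonical 168-nt form had 41, 60, 65 and 63 reads. The 165-nt form with the TG acceptor shown above had 22, 37, 22 and 30 reads, which is 33.3%, 35.2%, 23.4% and 31.9% of the reads at that donor. A 162-nt form, also noncanonical, had 3, 7, 4 and 1. Both wild-type values of the 165-nt form were above both K700E values, but the difference in use did not pass (edgeR diffSpliceDGE log2 change -0.31, adjusted p = 1.00).

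THOC2, a subunit of the THO complex that couples transcription to mRNA export, carried an AT-AC intron (chrX:123610964-123611439, 476 nt) with 27, 22, 13 and 17 reads. The noncanonical member used the same donor and an acceptor 6 nt further on (chrX:123610958-123611439, 482 nt) with 19, 12, 22 and 32 reads. Its share of that donor was 41.3%, 35.3%, 62.9% and 65.3%, higher in both K700E libraries, on 34 to 49 reads per library. Of the 32 members that could be tested for use this had the smallest p (unadjusted p = 0.135, edgeR diffSpliceDGE adjusted p = 1.00), so the shift did not pass.

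DDX46, a helicase that acts with the U2 snRNP, had 15, 16, 48 and 27 reads over its TT-AG intron, higher in both K700E libraries (log2 change 0.88 ± 0.462 SE, edgeR adjusted p = 0.743). The gene stood at 293, 326, 394 and 344 CPM. USP21, a deubiquitinase gene, had 6, 9, 13 and 17 reads over its AT-AG intron (log2 change 0.57 ± 0.586 SE, edgeR adjusted p = 0.932). In both genes the groups did not overlap, and neither change passed. The change of USP21 was smaller than its SE and that of DDX46 was not. Both junctions were chosen after their values were seen.

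The XBP1 intron had 0, 7, 3 and 3 unique reads with a longest overhang of 45 nt. Other XBP1 junctions had 175, 196, 232 and 283 reads, and its most used junction in each library 62, 68, 84 and 92. The 26-nt gap was thus a small part of XBP1 junction reads in this nuclear, chromatin-bound fraction, and wild type replicate 1, in which it was not listed, had a similar XBP1 level (48.8 CPM, against 54.0 to 55.6 in the others). With 13 reads in all, the groups overlapped and no difference was detectable (edgeR adjusted p = 0.973).

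Genes around this intron were read from a list chosen with earlier results known. Of 36 genes of IRE1 and the tRNA ligase, the tRNA splicing endonuclease, XBP1 targets and the other stress branches, all 36 were tested and 0 passed in either direction by edgeR or DESeq2, against 0.942% of all 10833 genes. At unadjusted p under 0.05 there were 2, beside 10.1% of all genes, both of them XBP1 targets: SEC61B, a subunit of the translocon, at 23.4, 20.0, 13.8 and 13.1 CPM, and CRELD2, at 38.7, 22.7, 14.9 and 19.7 CPM. The median log2 change was -0.40 over the 16 XBP1 targets and 0.23 over the 9 IRE1 and ligase genes, beside 0.0036 over all genes tested. RTCB had 72.4, 58.9, 76.3 and 88.3 CPM and the IRE1 gene ERN1 110.6, 132, 86.2 and 108 CPM, so RTCB was higher and ERN1 lower in both K700E libraries, and neither passed (edgeR adjusted p = 0.761 and 0.759).

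Unannotated members lay mostly inside introns. In 1936 of 2853 (67.9%) both flanking bases were intronic, and in 518 (18.2%) intergenic. Both lay in coding exon in 57, in untranslated exon in 83 and in noncoding exon in 90. Both ends fell in the same gene for 2189 (76.7%) and in 2 different genes for 83. The 12 with the most reads held 3232 reads, 12.2% of the class, so reads were spread over many more junctions than in the annotated class.

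A 25-nt gap in an intron of GMPR, the guanosine monophosphate reductase gene, had the most reads of any member: 189, 326, 456 and 409 (chr6:16266087-16266111). Its CPM was 53.5, 88.8, 104 and 77.7, and the groups overlapped (edgeR adjusted p = 0.909). STEAP1B held 2 of the 12, gaps of 22 nt (chr7:22592890-22592911, 47, 59, 65 and 86 reads) and 24 nt (chr7:22659050-22659073, 17, 30, 37 and 31 reads). NUFIP2, which encodes an RNA-binding partner of FMRP, had 23, 28, 42 and 49 reads over 36 nt (chr17:29278575-29278610). It was higher in both K700E libraries by a log2 change of 0.41 ± 0.386 SE, which did not pass (edgeR adjusted p = 0.927).

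Of the 12, 3 belonged to the pile near 300 nt, in introns of RSRC2 (329 nt), PRKCB, which encodes protein kinase C beta (chr16:23899566-23899871, 306 nt, 43, 47, 45 and 71 reads), and FAM129A (chr1:184967906-184968227, 322 nt, 31, 54, 50 and 62 reads). Over all 118 junctions of 300 to 340 nt the summed CPM was 131, 170, 160 and 136, so the groups overlapped. For gaps of 21 to 30 nt it was 413, 487, 535 and 454, again overlapping. Both K700E libraries were above both wild-type ones in each bin of longer gaps: up to 1000 nt, up to 10000 nt and over 10000 nt. On this scale unannotated canonical junctions were also higher in both K700E libraries in every bin from 51 to 10000 nt, and overlapped over 10000 nt. Some of these canonical differences were small, as at 300 to 340 nt with 690, 641, 695 and 702. The TMM factors were 0.988, 0.998, 1.02 and 0.991, and whether the canonical bins stay apart with scaling was not tested. Both K700E libraries were deeper, and the part of depth in these differences between groups was not tested.

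Members of 1001 to 10000 nt numbered 739 (25.9% of the unannotated members, with 15.7% of their reads), and 316 were longer (11.1%, with 9.04% of the reads). Of the 12 with the most reads 3 were of these lengths. A 6142-nt gap in ZNF718 had 35, 32, 46 and 52 reads (chr4:127125-133266), and a 5732-nt gap from an exon of the long noncoding RNA DLEU1 had 24, 20, 35 and 37 (chr13:50495211-50500942). An 89252-nt gap on chromosome 10 joined an intron of ZRANB1, a deubiquitinase gene, to an intron of CTBP2, a corepressor gene (chr10:124952898-125042149, 31, 20, 45 and 39 reads). None of these passed the test between groups.

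Where exon sequence covered 10 nt on both sides of both ends, the ends were often repeated. Of 240 such unannotated members 57.9% had at least 4 nt in common at the ends, so that the gap could be slid by that much, against 21.7% of 19450 unannotated canonical junctions. Split by length, the shares were 71.1% of 90 against 53.2% of 617 up to 50 nt, and 75 of 150 against 20.7% of 18833 above. A canonical pair could be reached by sliding in 12 of the 240. The repeat was at least as long as the gap itself in 6. Among them, a 22-nt gap of 11 units of 2 nt in LINC02393 had 45 reads. This sequence was at hand for 240 of 2853 members, all in exons, so the shares do not describe the intronic majority.

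The genes with the most distinct unannotated members were PRKCB with 13, MALAT1 with 10, SMYD3 and MUC19 with 9 each and JARID2 with 8. All 10 of MALAT1, an abundant nuclear noncoding RNA, lay in its exons and had end repeats of 1 to 13 nt, and they held 13, 26, 31 and 30 reads. The most read were a 34-nt gap (0, 11, 12 and 12) and a 76-nt gap (5, 3, 4 and 4). Of the annotated class NBPF12, of a primate-expanded gene family, had 4, PLEKHB2 had 3, and NPIPB4, CYTH2 and MUC19 were among those with 2.

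The RSRC2 gap was missing from 1 library. It had 63, 111, 0 and 89 reads (chr12:122525792-122526120). K700E replicate 1 listed in its place a canonical junction 8 nt away with 1 unique read (chr12:122525801-122526128), while RSRC2 itself stood at 232, 244, 209 and 261 CPM. With all libraries, and the missing entry entered as 0, the change was -1.46 ± 0.650 SE (log2, edgeR adjusted p = 0.613). Without K700E replicate 2 it passed as lower in K700E (adjusted p = 6.9e-13), as it did without wild type replicate 1 (adjusted p = 0.0165), with a replicate block (0.00279) and with no read minimum (0.0304). Without K700E replicate 1 it did not (log2 change -0.52, adjusted p = 0.974).

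A gap of 837 nt in MUC19, a mucin gene, had 66, 0, 34 and 9 reads (chr12:40483119-40483955). Wild type replicate 2 listed beside it a canonical junction with 1 read whose start lay 5 nt away. A canonical unannotated junction of the same 837 nt beside it had 222, 138, 94 and 39 reads. Without wild type replicate 1 the noncanonical one was called higher in K700E (edgeR adjusted p = 0.00738), against the 1 wild-type library that did not list it, and without wild type replicate 2 lower (-2.02, adjusted p = 0.00561). Without K700E replicate 1 it was also lower (-2.43, adjusted p = 0.0460). Over all 569 unannotated members with at least 10 reads, 426 library entries were missing, and 47 of these (11.0%) had such a near end. In 34 of the 47 the near junction had a single read.

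Between the groups, few members differed in level. Of the 661 members with at least 10 unique reads, 7 passed (edgeR quasi-likelihood test, adjusted p under 0.05), all of them unannotated: 2 of 569 higher and 5 of 569 lower in K700E. Over all 137026 junctions tested 0.369% passed, 0.111% higher and 0.258% lower. None of the 92 annotated members passed, with 1 higher and 6 lower at unadjusted p under 0.05 (3.23% and 4.06% of all junctions), and DESeq2 called 0 of them and 0 of the unannotated ones. Of the 569 unannotated members, 57 were higher and 27 lower at unadjusted p under 0.05, beside 707 and 554 of 12835 unannotated canonical junctions. Of the same 569, 42 had no unique reads in either wild-type library and 14 in either K700E library, and the K700E libraries were deeper. With a K700E library left out more were lower than higher, and with a wild-type library left out more were higher. In 6 of the 7 a whole group was not listed, and in the other 1 K700E library was not. No fold is given for them because a missing entry is not a count of 0 reads.

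A 25-nt gap in an exon of SNHG16, a small nucleolar RNA host gene that overlaps AC015802.6, had 0, 0, 15 and 33 reads (edgeR adjusted p = 0.00776, 0.0564 by DESeq2). It was called in 11 of 12 alternative settings, with adjusted p from 2.9e-05 to 0.0564. SNHG16 itself had 24.2, 24.7, 32.2 and 18.0 CPM, with overlapping groups. The STK17A and COA1 gap had 0, 0, 17 and 12 reads (edgeR adjusted p = 0.0363). It lost its call when wild type replicate 1 (0.0655), wild type replicate 2 (0.0557) or K700E replicate 1 (0.0644) was left out, and DESeq2 gave it no adjusted p. STK17A stood at 17.3, 22.5, 23.7 and 29.9 CPM and COA1 at 145, 149, 134 and 87.9 CPM. Which of the genes the reads came from could not be told, since the strand of these junctions is undefined.

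The 5 that were lower lay in introns or between genes. A 22-nt gap in CCDC6 had 15, 9, 0 and 0 reads (chr10:59893302-59893323, edgeR adjusted p = 0.0193), and CCDC6 itself stood at 62.7, 59.7, 33.6 and 28.8 CPM (log2 change -0.97 ± 0.257 SE, edgeR adjusted p = 0.136). A 222-nt gap in SMYD3, a methyltransferase gene, had 9, 15, 0 and 0 (chr1:246024535-246024756, adjusted p = 0.0190), while SMYD3 had 179, 276, 224 and 214 CPM. The 3 intergenic ones had 12, 17, 0 and 0 reads over 1689 nt (chr5:49660056-49661744, adjusted p = 0.00897), 9, 13, 0 and 0 over 31 nt (chr5:28995967-28995997, adjusted p = 0.0255) and 11, 16, 0 and 2 over 31 nt (chr1:157284477-157284507, adjusted p = 0.0479). The first of these had 25 multiply mapped reads beside its 29 unique ones. The CCDC6, SMYD3 and 28995967 gaps lost their calls without K700E replicate 2 (highest adjusted p = 0.0819), CCDC6 also without wild type replicate 1 (highest over its settings 0.0629). The gap at 157284477 lost its call without wild type replicate 2 (adjusted p = 0.110), without K700E replicate 1 (0.181) and with multiply mapped reads added (0.0532).

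Both annotated members of MUC19 came close. One had 49, 57, 28 and 11 reads (chr12:40544884-40545049, 166 nt, log2 change -1.82 ± 0.440 SE, edgeR adjusted p = 0.0731) and the other 49, 25, 16 and 4 (chr12:40563561-40565512, 1952 nt, log2 change -2.27, adjusted p = 0.0759). Both were lower in both K700E libraries, and MUC19 as a whole had 10801, 7657, 4553 and 1375 CPM (log2 change -1.64 ± 0.453 SE, adjusted p = 0.156). Within its cluster the second took 10.3%, 7.23%, 6.87% and 3.23% of the reads, with no call. Each passed in 6 of 13 other settings, for example without K700E replicate 1 (adjusted p = 0.00101 and 0.00041) and with a replicate block (0.0382 and 0.0141).

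**Figure D4:**
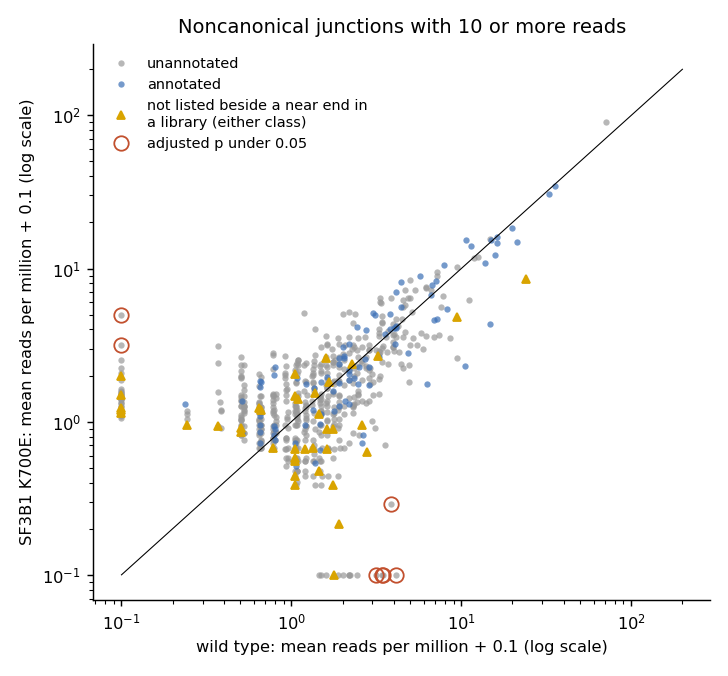
Mean CPM plus 0.1 in wild type (horizontal) against SF3B1 K700E (vertical), both log scales, for the 661 members with at least 10 reads. The 7 circled junctions passed the test and lie on or near the axes, triangles mark junctions not listed in a library that has a near end, and the line marks equal levels.

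Groups did not overlap in many more members than passed the test. Of 569 unannotated members 22.3% were higher in both K700E libraries and 15.3% lower in both, beside 19.0% and 17.4% of all junctions tested. Unannotated canonical junctions gave 24.0% and 16.6%. Among the 258 unannotated members tested and listed in all 4 libraries the shares were 16.7% and 20.5%, and the median log2 change was -0.04. The shares were 18.3% and 17.5%, with a median of 0.0046, over the 128899 junctions of any class tested and listed in all 4 libraries. For annotated members the shares were 26.1% and 18.5% of 92.

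Unannotated noncanonical junctions took 0.133%, 0.155%, 0.175% and 0.159% of unique junction reads, with 95% Wilson intervals of 0.129% to 0.136%, 0.151% to 0.159%, 0.171% to 0.179% and 0.156% to 0.162%. The means were 0.144% ± 0.0159 in wild type and 0.167% ± 0.0112 in K700E (SD, n = 2 each, exact permutation test, two-sided p = 0.33, the smallest that 6 assignments allow). Both K700E libraries, the deeper ones, were higher. The 278 junctions listed in all 4 libraries took 0.0690%, 0.0781%, 0.0810% and 0.0676% of all unique junction reads, with overlapping groups. With reads of all classes also limited to junctions listed in all 4 libraries, the difference was 0.00114 percentage points in place of 0.0230. Over junctions with at least 10 reads the difference was 0.00681 percentage points, and without wild type replicate 1 it was 0.0117. The 2575 listed in 1 to 3 libraries took 0.0636%, 0.0771%, 0.0938% and 0.0914% of all unique junction reads, higher in both K700E libraries. Unannotated canonical junctions in 1 to 3 libraries stood at 2.03%, 2.00%, 2.52% and 2.34%. The part of depth in the difference was not tested.

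Annotated noncanonical junctions took 0.0478%, 0.0467%, 0.0461% and 0.0456% of the reads over annotated junctions, with intervals that overlap between all 4 libraries. The means were 0.0472% ± 0.00081 in wild type and 0.0458% ± 0.00037 in K700E (SD, n = 2 each, exact permutation p = 0.33). K700E minus wild type came to -0.0014 percentage points, within the counting error of single libraries.

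**Figure D5:**
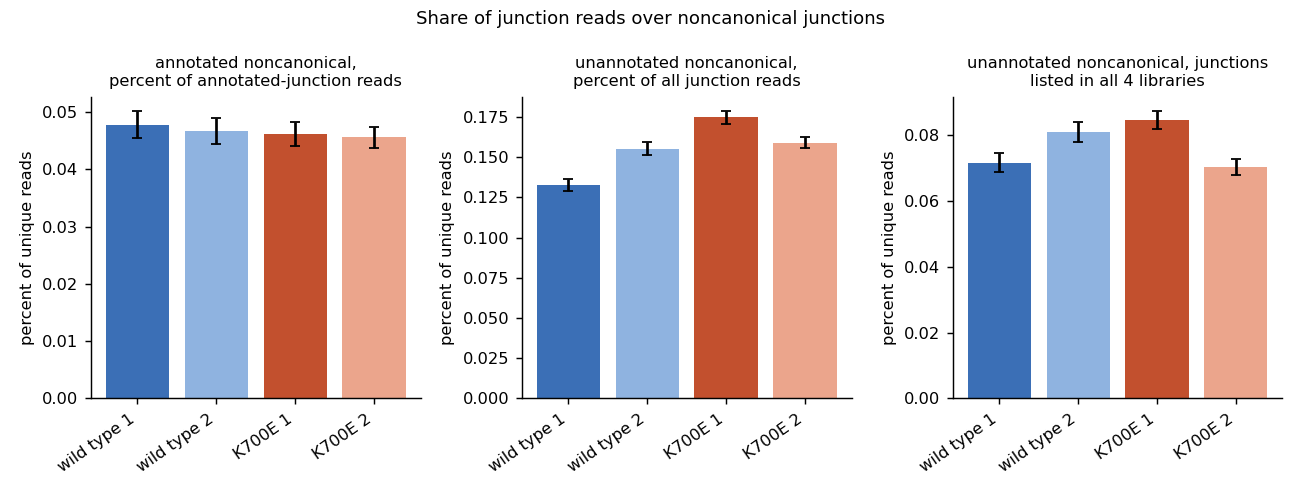
Percent of unique reads in noncanonical junctions (vertical axis, from 0) in each library, with 95% Wilson intervals as bars. Percents are of reads over annotated junctions (left), all junctions (middle) and junctions of any class listed in all 4 libraries (right). The annotated share is level, the unannotated share is higher in both K700E libraries, and over junctions listed in all 4 libraries wild type and K700E overlap.

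Use against junctions of any class that share a start or an end could be tested for 31 annotated members and 1 unannotated member. The member and another junction of its cluster each needed 10 or more reads. With no read minimum 100 annotated and 55 unannotated members could be tested. Within a library, the lists also held no unannotated member with an end less than 10 nt from the same kind of end of another junction. None of the 32 passed (edgeR diffSpliceDGE), against 0.0397% of all 75573 junctions tested. At unadjusted p under 0.05 there were 0, against 1.83%, and the median log2 change was 0.01. With limma's voom in place of edgeR 0 passed as well.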

How the data were processed

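Per the deposited run logs, read pairs were aligned by the authors with STAR 2.7.10a in 1 pass to GRCh38.p12 with 353424 junctions of GENCODE 27, plus 1887 of GENCODE 22. The deposited junction lists hold raw counts of unique and multiply mapped reads and the longest overhang. The 4 lists were joined, and members, gene lists and named junctions were chosen with earlier results of these data known. Named were the 12 junctions of each class with the most reads, every call, the XBP1 intron and the 5 genes with the most members of each class; others are said to be chosen after their values were seen. Places, genes and exon sequence came from GENCODE 29 on the same build. Junctions of any motif with 10 or more unique reads over the 4 libraries were tested with edgeR 4.0.16 (quasi-likelihood, TMM, group term, Benjamini-Hochberg over all junctions, threshold 0.05), use with diffSpliceDGE and genes on summed annotated-junction counts. CPM, counts per 1000000, is TMM-scaled. Other settings used DESeq2 1.42.0 and limma 3.58.1. Intervals are 95% Wilson intervals, and they cover counting error only. Scripts were tested on simulated data. Intron sequence was not used here, and some exon sequences are not reported here.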

Additional observations from a re-analysis of the deposited data

How the results depend on the processing

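The 7 calls became 12 with a replicate block (3 higher, 9 lower), 15 with no read minimum (12 lower), 0 with DESeq2 (0 higher, 0 lower), 0 (0 higher, 0 lower) when only annotated junctions were tested, which leaves out the called class, and 6 to 17 when 1 library was left out (3 to 6 higher, 3 to 12 lower). In the same-numbered libraries deviations ran against each other (r = -0.21), and with the numbers crossed, a setting added after seeing the data, there were 12 calls (9 lower). All 7 stayed called with either block, DESeq2 size factors, no minimum, a minimum of 20 reads or without the 39 tested members that have a near end, also added later. Of the 54 named junctions tested 22 changed sign in at least 1 setting, 21 of them without a call in any setting where they did. The other was the MUC19 gap of 837 nt, which went from -2.43 to 7.37 (log2) with 1 library left out and was highest without wild type replicate 1, where the remaining wild-type library did not list it, so that this fitted value is not a fold. The block changed no call in junction use or the gene lists, which stayed at 0. Shares kept their direction in every setting run, from -0.00316 to -0.00083 percentage points for annotated and 0.00114 to 0.0342 for unannotated junctions. Filters on reads and overhang in the lists, and 2 libraries per group, limit what low counts can show.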
